A study of Homo sapiens with 6 samples.

Results

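Chromatin accessibility was examined at 8 genes that mark liver progenitor cells, bile duct cells or the stem-like fraction of liver tumours: SOX9, SOX4, KRT7, KRT19, PROM1, CD24, CD44 and THY1. They were taken by name from 20007 protein-coding genes. Every ATAC-seq peak within 1 kb of any annotated transcription start of these genes, inside their bodies or within 50 kb of their ends was collected, which gave 129 accessible sites out of 166021 in the whole data set. A site is a stretch of DNA made by merging the overlapping peaks of all libraries. The cells were HLF, an established human liver cancer line, treated with DMSO as the vehicle or with 5 μM SNDX-5613 (revumenib), which blocks the binding of menin to MLL1. The labels give 24 h of treatment, while the study's methods describe a longer one, so the duration is uncertain. Each group held 3 libraries, all from the same labelled batch and the same cell line. The study describes each replicate as a dish of cells divided between treated and untreated groups.

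The liver and the bile duct share a developmental origin. SOX9 is a transcription factor of ductal and progenitor cells, SOX4 acts beside it in biliary development, and KRT7 and KRT19 are the keratins by which bile ducts are recognised in tissue. PROM1 (CD133), CD24, CD44 and THY1 (CD90) are surface molecules used to sort stem-like cells from liver tumours. CD44 binds hyaluronan, and THY1 is also known from mesenchymal cells. In ATAC-seq the Tn5 transposase inserts adapters into DNA not shielded by nucleosomes, so that a peak at a gene start marks an open promoter but does not measure transcription.

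The sequences of 1 open promoter of each of 2 member genes and of 4 distal sites are shown because the comparisons below turn on them or because they hold the CCAAT box, the core element of the factor NF-Y on which the study centred. Capitals mark CCAAT on either strand (read as ATTGG on the opposite strand), and in the KRT19 upstream site also TGAGTCA, the AP-1 element on its reverse strand. The SOX4 promoter stretch is RefSeq, GRCh38.p14, plus strand, chr6:21593501-21593750. It ends at the base before the transcription start. The CD24 stretch is RefSeq, minus strand, chr6:106974040-106974289, and lies before an alternative start inside the CD24 promoter site of highest mean rank. The remaining 4 are the plus strand of hg38 around the strongest summit of the site: chr17:41530319-41530469 and chr17:41548980-41549130 for KRT19, chr4:15921441-15921591 for PROM1 and chr6:106997733-106997883 for CD24.
SOX4 promoter: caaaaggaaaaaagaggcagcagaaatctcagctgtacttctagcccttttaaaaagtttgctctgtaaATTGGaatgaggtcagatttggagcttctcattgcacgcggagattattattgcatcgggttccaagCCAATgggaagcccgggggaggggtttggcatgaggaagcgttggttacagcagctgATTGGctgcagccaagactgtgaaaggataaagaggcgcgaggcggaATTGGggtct
CD24 promoter: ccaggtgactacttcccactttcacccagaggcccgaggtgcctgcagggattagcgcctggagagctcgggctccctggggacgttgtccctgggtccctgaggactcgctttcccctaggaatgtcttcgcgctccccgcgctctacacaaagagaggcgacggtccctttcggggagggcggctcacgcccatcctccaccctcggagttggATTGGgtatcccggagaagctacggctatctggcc
KRT19 upstream site near the gene: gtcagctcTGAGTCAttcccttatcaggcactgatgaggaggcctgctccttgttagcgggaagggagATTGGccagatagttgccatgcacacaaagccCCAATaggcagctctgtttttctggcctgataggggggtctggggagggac
KRT19 far upstream site: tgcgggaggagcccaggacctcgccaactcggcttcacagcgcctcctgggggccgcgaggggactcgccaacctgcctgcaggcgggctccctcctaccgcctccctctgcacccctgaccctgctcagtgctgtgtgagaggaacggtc
PROM1 downstream site: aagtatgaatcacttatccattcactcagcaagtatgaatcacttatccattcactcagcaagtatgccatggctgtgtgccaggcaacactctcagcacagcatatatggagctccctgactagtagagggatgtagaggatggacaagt
CD24 upstream site: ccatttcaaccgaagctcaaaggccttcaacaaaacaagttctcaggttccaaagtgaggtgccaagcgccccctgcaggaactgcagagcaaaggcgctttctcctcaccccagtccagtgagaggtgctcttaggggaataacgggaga

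The SOX4 promoter held CCAAT 4 times within 250 bases, with the first base of each copy 181, 114, 57 and 10 bases before the start. Of 35116 RefSeq promoter stretches of that length, 32.0% held CCAAT at least once on either strand and 0.874% held it 4 or more times. The CD24 stretch held it 1 time, 35 bases before the alternative start. Both KRT19 upstream sites are intergenic. The site near the gene held CCAAT 2 times and the AP-1 element 1 time, and the AP-1 letters overlapped a match to CATTCC, the core element of TEAD factors. In the PROM1 downstream site, a stretch of 37 bases occurred 2 times, and a filter on mapping quality was not stated. The PROM1 and CD24 distal sites and the far KRT19 site held none of the searched letters within 100 bp of the summit.

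Depth was read from the peak lists, as the background pileup that solves the peak caller's equations. It was 0.997 to 1.51 in 5 libraries and 0.211 in SNDX-5613 replicate 3, which is 16.2% of the median of the others. That library had 40568 peaks, against 88026 to 113675 in the other 5. The lowest pileup it called was 3, or 14.2 times its background, against 4.60 to 6.02 times in the others. A peak in that library can therefore rest on few reads. The part of depth in the results below was not tested, and values without this library are given beside many of the differences. The cell type was checked at promoters. None of 7 hepatocyte marker genes had a promoter site in all 6 libraries, and ALB, APOA1, CYP3A4 and HNF4A had no promoter peak in any library. TTR had a promoter site in the 5 deeper libraries, at percentiles of 39.8, 62.8 and 61.7 with DMSO within each library's own list. In SNDX-5613 replicates 1 and 2 it stood at 62.3 and 67.2, and only the shallow replicate 3 had no peak. TF and SERPINA1 had a promoter peak in 2 libraries each. All 4 epithelial markers (EPCAM, CDH1, KRT8, KRT18) and all 4 mesenchymal markers (VIM, CDH2, ZEB1, COL1A1) had a promoter site in all 6 libraries. Endothelial markers had it at 0 of 3 genes.

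The promoters of the 8 genes were in very different states in HLF cells. SOX9, SOX4, CD24 and CD44 had a peak within 1 kb of the MANE Select start, the reference start of the gene, in all 6 libraries. PROM1 and THY1 had only weak peaks there, and only in the 5 deep libraries. KRT7 and KRT19, the classical duct keratins, had no peak there in any library, and the nearest edge of a site lay 1811 bp away for KRT7 and 1650 bp away for KRT19. Counted at any annotated start instead, 5 of the 8 genes, now with KRT7, had a promoter site in all 6 libraries and KRT19 had no promoter peak. By that rule 64.1% of all protein-coding genes had a site in all 6 and 19.2% had no promoter peak in any library.

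**Figure D1:**
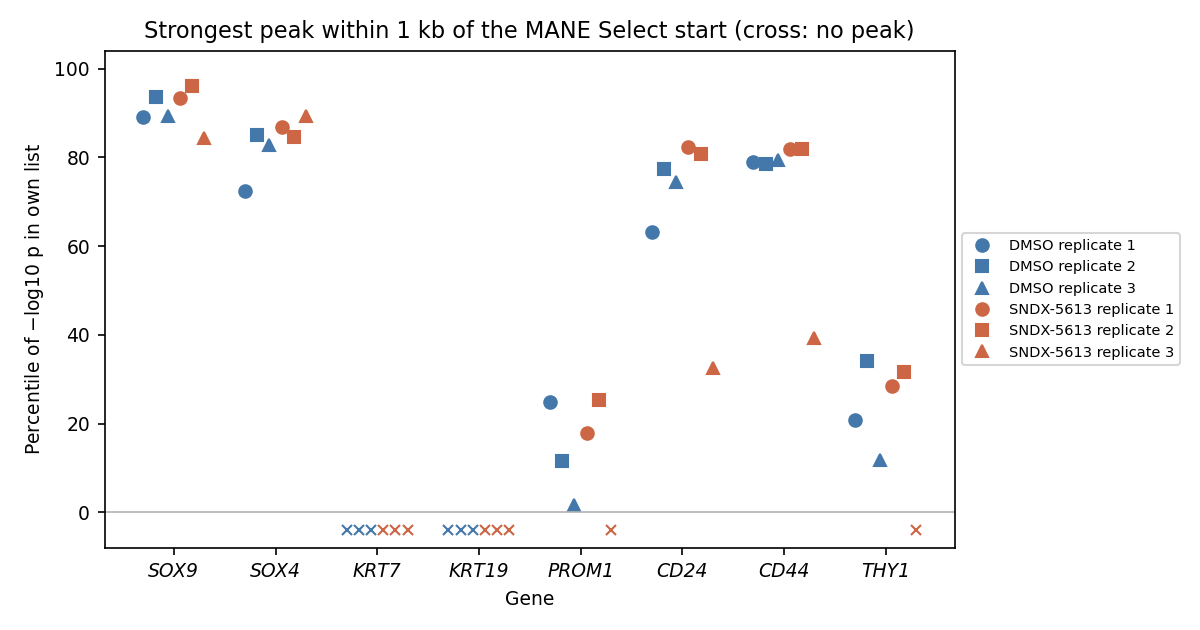
Rank of the strongest peak within 1 kb of the MANE Select start of each gene, as a percentile of -log10 p among all sites with a peak in the same library, for the 3 DMSO (blue) and 3 SNDX-5613 (orange) libraries. Crosses below 0 mark libraries with no peak: KRT7 and KRT19 have none in 6 libraries, and SOX9 sits between 84.3 and 96.0.

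Within its own peak list, the strongest peak at the SOX9 start stood at percentile 89.1, 93.7 and 89.3 of -log10 p with DMSO and at 93.4, 96.0 and 84.3 with SNDX-5613, in order of replicate here and below. At the PROM1 start it stood at 24.8, 11.5 and 1.67 with DMSO and at 18.0 and 25.3 in SNDX-5613 replicates 1 and 2, with no peak in replicate 3. Each of the 4 sites within 1 kb of the PROM1 start had a peak in only 1 DMSO library. The 3 DMSO values there came from different sites and show no site repeated between DMSO libraries. At the THY1 start the strongest peak stood at 20.7, 34.1 and 11.9 with DMSO and at 28.5 and 31.7 in SNDX-5613 replicates 1 and 2, again with none in replicate 3. The groups overlapped at all 3 starts on this scale, and percentiles in the short list of SNDX-5613 replicate 3 are not directly comparable with the others.

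Open sites also differed between the genes in number and place. SOX9 and SOX4 had 5 sites each, of which 1 each, the promoter, was present in all 6 libraries. KRT7 had 24 sites and KRT19 had 14, and 21 and 14 of these lay in the flanks. PROM1, the longest gene of the set at 121303 bp, had 34 sites, of which 17 were found in 1 library only. CD44 had 23 sites, 16 of them inside its body of 93521 bp, while CD24 had 11 and THY1 had 13. Of the 129 sites, 31 (24.0%) were present in all 6 libraries and 48 (37.2%) in 1 library, against 20.1% and 36.2% of all sites. Among the flanking sites, 8 lay at the promoter of another protein-coding gene, such as KRT80 beside KRT7, KRT15 beside KRT19 and USP2 beside THY1.

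**Figure D2:**
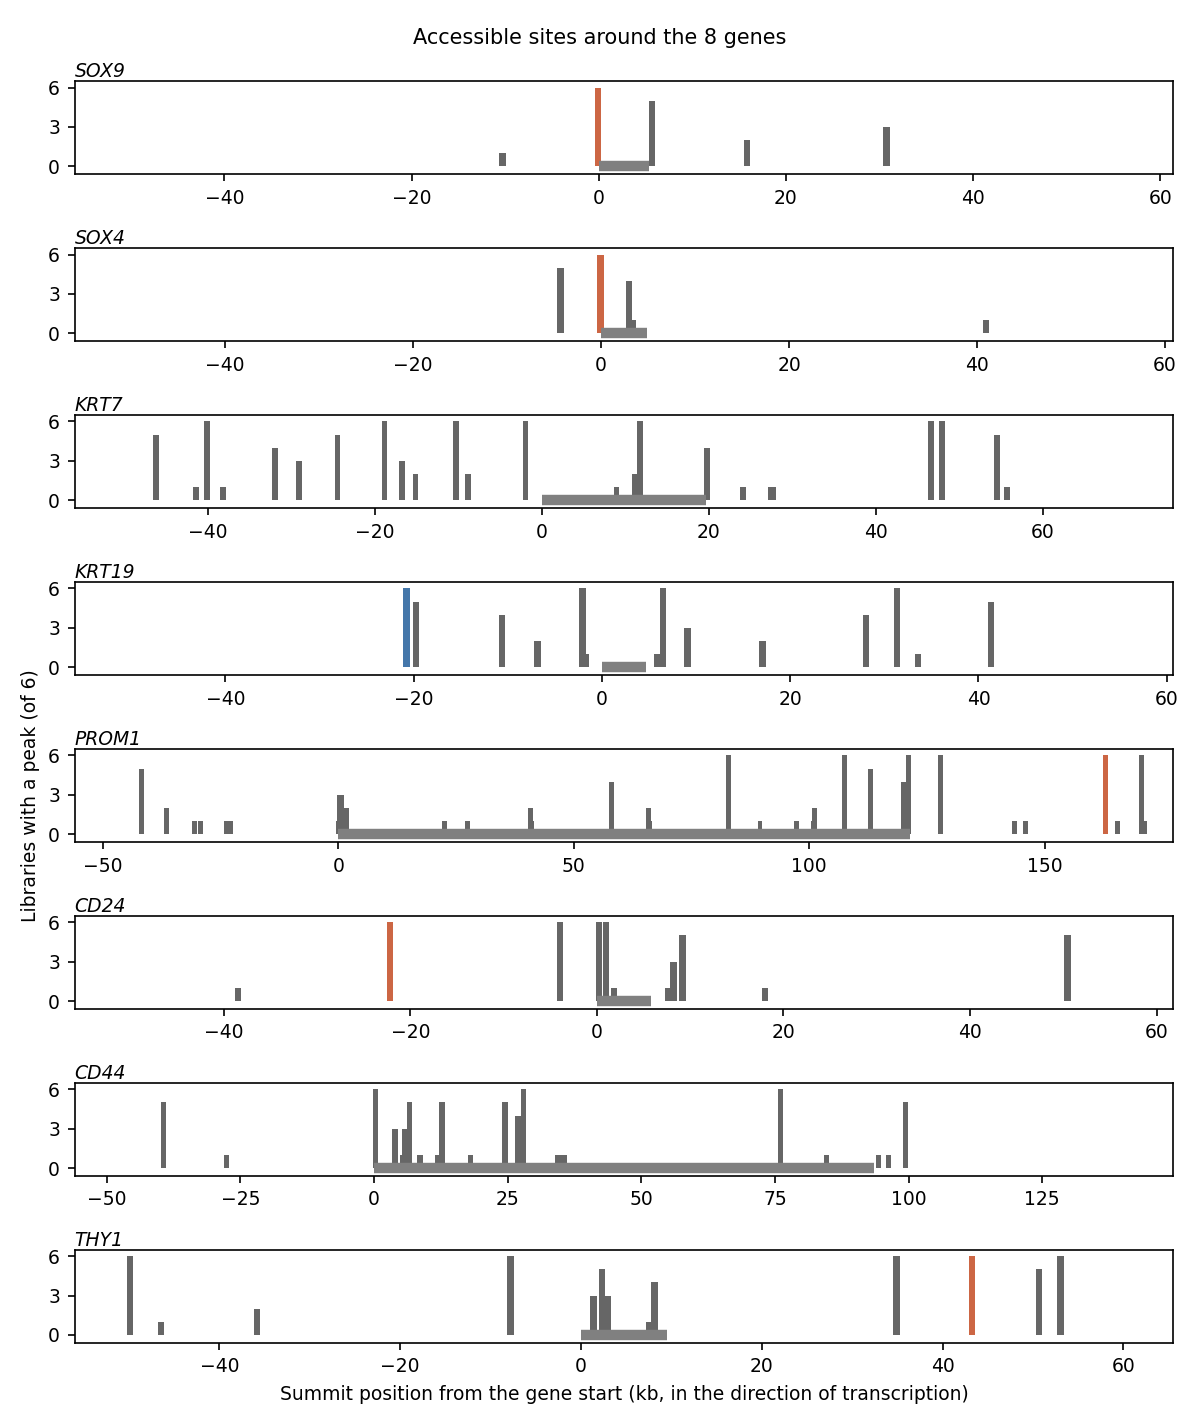
Sites around each gene, placed by the distance of the summit from the gene start in kb (negative is upstream), with bar height for the number of libraries with a peak, of 6. Grey lines are gene bodies, orange bars the 5 sites whose rank was higher in all SNDX-5613 than in all DMSO libraries and the blue bar the 1 site whose rank was lower; SOX9 and SOX4 have few sites and KRT7 and PROM1 many.

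The number of sites at the 8 genes did not separate the treatments. The DMSO libraries held 65, 93 and 70 of them and the SNDX-5613 libraries 76, 78 and 35. The means were 76.0 ± 14.9 (SD, n = 3) and 63.0 ± 24.3 (SD, n = 3), and an exact two-sided permutation test gave p = 0.6, where 3 against 3 libraries cannot go below 0.1. As a share of all sites of the library, the 8 genes held 0.0788% ± 0.00543 (SD, n = 3) with DMSO and 0.0819% ± 0.00859 (SD, n = 3) with SNDX-5613, with p = 0.7 in the same exact permutation test. Without SNDX-5613 replicate 3, the mean was 77.0 sites against 76.0 with DMSO. The authors' consensus peak sets, 1 for each group, both covered 63 of the 129 sites, the DMSO set alone covered 4, the SNDX-5613 set alone 11, and 51 were in neither.

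A site was called gained when each SNDX-5613 library and no DMSO library had a peak there, and lost in the opposite case. Of the 129 sites, 0 were gained, against 0.147% of all sites, and 1 was lost, against 1.18%. The site that was lost lay at chr17:41519139-41519440 (hg38), in a UTR exon at the promoter of KRT15, a keratin of basal epithelial cells, 9110 bp downstream of the KRT19 start. With DMSO its -log10 p was 5.96, 9.35 and 10.2, which placed it at list percentiles of 12.4, 34.5 and 34.3, and a region of the authors' SNDX-5613 consensus set overlapped it. Without SNDX-5613 replicate 3, a setting chosen with its low depth known, 3 member sites had a peak in both other SNDX-5613 and no DMSO library, against 2.43% of all sites, and the same 1 site was lost, against 1.23%. The 3 were an intergenic site 6859 bp upstream of KRT19 with -log10 p of 9.58 and 4.09, and PROM1 intronic sites 101054 bp and 40826 bp downstream of its start with 10.4 and 6.19 and with 6.63 and 4.54. The PROM1 site at 101054 bp also counted as a promoter site, with its summit 979 bp from an annotated PROM1 start.

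Strength was then compared at sites with a peak in all 6 libraries. Each of the 33405 such sites in the genome was ranked within its library by -log10 p. The rank was written as a percentile from weakest to strongest, which gives each library the same range. Ranks can still depend on depth, and that was not tested. A difference is in percentile points, SNDX-5613 minus DMSO. Of the 31 member sites, 5 had higher percentiles in all 3 SNDX-5613 than in all 3 DMSO libraries, against 8.54% of all sites, and 1 had lower ones, against 8.08%. The other 25 overlapped between the groups. The differences ranged from -14.5 to 20.1, with a median of 0.849 over the member sites and -0.0933 over all sites, and 16 were positive and 15 negative.

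A limma fit across all 33405 sites, on normal scores of the ranks with Benjamini-Hochberg adjustment, called 65 sites (0.195%) at an adjusted p under 0.05 and 0 of the 31 member sites. The smallest adjusted p of a member site in that limma fit was 0.461. At an unadjusted p under 0.05 the limma fit had 2 of 31 member sites, against 9.94% of all sites. With the replicate number as a block, limma called 3 sites in all and 0 member sites. No single site around these genes therefore passed the test, and the order of libraries described below is a description of ranks.

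**Figure D3:**
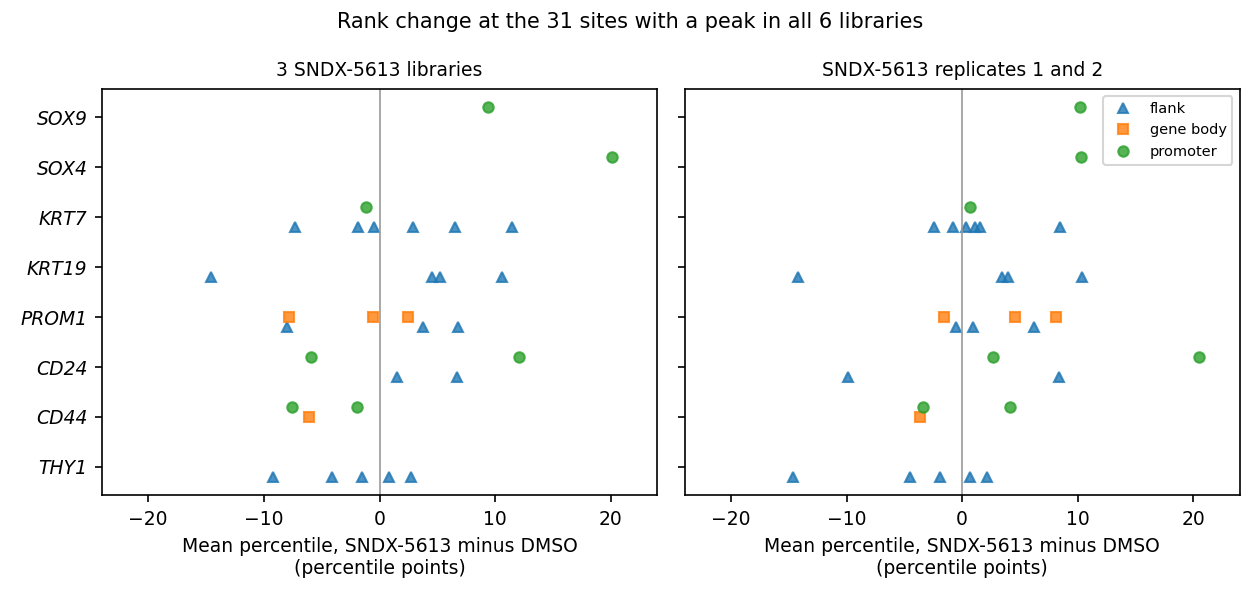
Difference in mean percentile, SNDX-5613 minus DMSO in percentile points, at the 31 sites of 8 genes with a peak in all 6 libraries (circle, promoter; square, gene body; triangle, flank), with 3 SNDX-5613 libraries on the left and with replicates 1 and 2 alone on the right. The SOX9 and SOX4 promoters lie to the right of 0 in both panels, at 9.38 and 20.1 on the left and at 10.2 and 10.3 on the right.

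SOX9 had a single promoter site, chr17:72120814-72121965, which also holds starts of the antisense RNA SOX9-AS1, so the 2 promoters cannot be told apart. Its percentile was 72.7, 79.2 and 70.0 with DMSO, against 79.6, 88.7 and 81.8 with SNDX-5613. All SNDX-5613 libraries stood above all DMSO libraries, but the closest pair was 0.350 points apart. The difference was 9.38 points, from 74.0 ± 4.74 (SD, n = 3) to 83.3 ± 4.75 (SD, n = 3), with p = 0.1 in the exact permutation test, the smallest it allows, and an adjusted p of 0.554 by limma. Leaving out SNDX-5613 replicate 3 and ranking again gave a difference of 5.72 points and p = 0.2 in the exact permutation test. The strongest distal site of SOX9, 5716 bp downstream of its start, had list percentiles of 29.5, 46.7 and 29.9 with DMSO and of 44.4 and 55.7 in SNDX-5613 replicates 1 and 2, with no peak in replicate 3.

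SOX4, whose promoter carries the CCAAT copies printed above, had its promoter site at chr6:21593566-21595443, where a long noncoding RNA (ENSG00000283480) also starts. The percentile was 38.4, 52.5 and 53.1 with DMSO, against 59.5, 57.1 and 87.6 with SNDX-5613. The groups did not overlap, and the shallow replicate 3 stood far above the other 5 libraries. The difference was 20.1 points, from 48.0 ± 8.30 (SD, n = 3) to 68.1 ± 17.0 (SD, n = 3), with p = 0.1 in the exact permutation test and an adjusted p of 0.513 by limma. Without SNDX-5613 replicate 3 and with new ranks it was 7.46 points, with p = 0.3 in the exact permutation test. Ranked by fold enrichment instead of -log10 p, the SOX4 percentiles were 19.7, 30.5 and 28.9 with DMSO and 27.4, 27.9 and 87.9 with SNDX-5613. The difference was 21.4 points with p = 0.6 in the exact permutation test. Only the shallow replicate 3 stood above the DMSO libraries, and SNDX-5613 replicates 1 and 2 lay within the DMSO range. The SOX9 difference by fold enrichment was 9.41 points with p = 0.2 in the exact permutation test, and its groups overlapped too. The strongest distal SOX4 site lay 4311 bp upstream and had list percentiles of 66.5, 68.5 and 73.5 with DMSO and of 78.0 and 69.4 in SNDX-5613 replicates 1 and 2, with no peak in replicate 3.

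**Figure D4:**
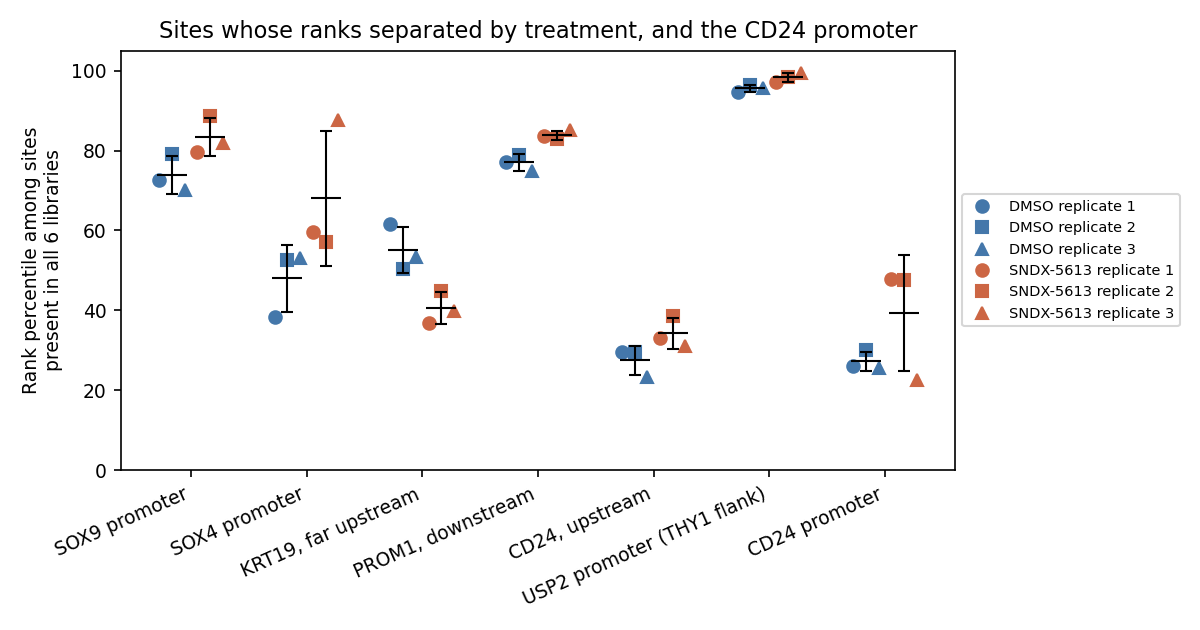
Percentile of -log10 p among the 33405 sites present in all 6 libraries, for the 6 member sites whose groups did not overlap and for the CD24 promoter site. Points are libraries (blue DMSO, orange SNDX-5613, shape gives the replicate) and bars show the mean and SD of 3 libraries; at SOX4 and CD24, SNDX-5613 replicate 3 sits apart at 87.6 and 22.6.

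Among the keratins, KRT7 was open at an internal site, chr12:52243858-52244769, 11732 bp downstream of the gene start and near an alternative noncoding start. Its percentile was 53.1, 65.2 and 50.6 in the DMSO and 58.6, 55.4 and 51.5 in the SNDX-5613 libraries. The groups overlapped, with a difference of -1.15 points and p = 0.9 in the exact permutation test, and the difference was 0.762 points without SNDX-5613 replicate 3 and with new ranks. This KRT7 site held TGACTCA 1 time within 100 bp of its summit. The strongest distal site, 40175 bp upstream at the promoter of KRT80, a keratin of differentiating epithelia, had percentiles of 76.0, 84.1 and 72.4 with DMSO and of 78.9, 74.5 and 87.7 with SNDX-5613. These overlapped too.

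KRT19 had no promoter site and 4 sites present in all 6 libraries. The far upstream site, 20747 bp from the start, was the 1 member site whose percentiles were lower in all 3 SNDX-5613 than in all 3 DMSO libraries: 61.6, 50.3 and 53.5 in the DMSO replicates and 36.9, 44.9 and 39.9 in the SNDX-5613 replicates. The difference was -14.5 points, from 55.1 ± 5.82 (SD, n = 3) to 40.6 ± 4.03 (SD, n = 3), with p = 0.1 in the exact permutation test and an adjusted p of 0.482 by limma. Ranked by fold enrichment, the groups overlapped, with 49.6, 34.9 and 39.2 with DMSO and 23.7, 27.9 and 39.0 with SNDX-5613, and the difference was -11.1 points with p = 0.2 in the exact permutation test. With SNDX-5613 replicate 3 left out of the mean, the difference was -14.2 points. The upstream site near the gene, 2086 bp from the start, had a higher mean with SNDX-5613, with 34.3, 25.7 and 21.8 in the DMSO and 27.8, 33.6 and 52.1 in the SNDX-5613 libraries. There the groups overlapped, and the exact permutation test gave p = 0.3 for a difference of 10.6 points, which was 3.43 without SNDX-5613 replicate 3 in the mean. The strongest distal site, 31354 bp downstream, overlapped between the groups as well, with a difference of 5.25 points and p = 0.5 in the exact permutation test, and 10.4 points without SNDX-5613 replicate 3 in the mean.

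CD24 encodes a small, heavily glycosylated adhesion molecule and had 2 promoter sites present in all 6 libraries. The site with the higher mean rank over all 6, chr6:106973953-106974883, had percentiles of 26.1, 30.0 and 25.6 with DMSO and of 47.9, 47.5 and 22.6 with SNDX-5613. Both deep SNDX-5613 libraries stood above all DMSO libraries and the shallow one below them. The difference was 12.1 points with p = 0.4 in the exact permutation test, and 18.6 points with p = 0.1 without SNDX-5613 replicate 3, the smallest p that 3 against 2 libraries allow in the exact permutation test. Ranked by fold enrichment, its percentiles were 12.2, 12.1 and 9.86 with DMSO and 19.4, 16.7 and 21.6 with SNDX-5613, which did not overlap, with a difference of 7.86 points and p = 0.1 in the exact permutation test. The other promoter site, chr6:106974946-106975692, had the higher mean percentile of the 2 with DMSO, 28.5 against 27.2. Its percentiles were 14.7, 34.9 and 36.1 with DMSO and 22.4 and 5.37 in SNDX-5613 replicates 1 and 3, while SNDX-5613 replicate 2 stood above the other 5 libraries. They overlapped with a difference of -5.97 points, or 2.64 without SNDX-5613 replicate 3 in the mean. The 2 sites therefore did not give the same picture of the CD24 promoter. CD24 has processed copies elsewhere in the genome, so peaks in its exons are uncertain where the handling of multiply mapped reads is not stated.

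The CD24 upstream site, 22181 bp from the gene start and intergenic, was higher in each SNDX-5613 library. Its percentiles were 29.7, 29.6 and 23.3 with DMSO and 33.1, 38.6 and 31.0 with SNDX-5613, and the difference of 6.73 points had p = 0.1 in the exact permutation test and an adjusted p of 0.705 by limma. Ranked by fold enrichment, the groups overlapped and the difference was -0.649 points. Its pileup was 28, 37 and 32 reads with DMSO and 38, 44 and 6 with SNDX-5613, which shows how few reads the shallow library gives at such a site. The strongest distal CD24 site, 3956 bp upstream, had percentiles of 43.7, 30.2 and 39.1 with DMSO and of 24.3, 31.4 and 61.9 with SNDX-5613, and the groups overlapped. The difference of 1.52 points was -9.85 without SNDX-5613 replicate 3 in the mean.

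CD44 was open at its reference start, chr11:35138625-35140129, in all 6 libraries. The percentiles were 49.9, 37.4 and 45.4 with DMSO and 46.5, 50.3 and 30.2 with SNDX-5613, and they overlapped with a difference of -1.92 points and p = 0.9 in the exact permutation test. Without SNDX-5613 replicate 3 and with new ranks the difference was 3.58 points. A further CD44 promoter site, 76011 bp downstream and near a start of the RNA CD44-AS1, also had a peak in all 6 libraries. Its percentiles were 29.6, 17.1 and 23.6 with DMSO and 20.2, 19.9 and 7.60 with SNDX-5613. They overlapped with a difference of -7.53 points and p = 0.3 in the exact permutation test. That difference was -3.38 without SNDX-5613 replicate 3 in the mean. The intronic CD44 site 27941 bp downstream had percentiles of 32.5, 50.1 and 41.2 with DMSO and of 54.0, 21.2 and 30.2 with SNDX-5613. Here the spread within the SNDX-5613 libraries was wider than the difference of -6.10 points, which was -3.64 without SNDX-5613 replicate 3 in the mean.

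PROM1, a cholesterol-binding membrane glycoprotein, was open mainly outside its promoters. Its strongest promoter site, 112939 bp into the gene at an alternative start, had a -log10 p of 9.10, 6.85 and 9.28 with DMSO and of 6.63 and 5.95 in SNDX-5613 replicates 1 and 2, and no peak in replicate 3. The strongest site of the region was intergenic, chr4:15920738-15921822, past the end of the gene and 162862 bp from its start. Its percentiles were 77.2, 79.0 and 74.9 with DMSO and 83.6, 82.9 and 85.1 with SNDX-5613, which did not overlap. The difference was 6.80 points, from 77.0 ± 2.08 (SD, n = 3) to 83.8 ± 1.13 (SD, n = 3), with p = 0.1 in the exact permutation test and an adjusted p of 0.603 by limma.

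THY1 had 3 promoter sites and none of them in all 6 libraries. The strongest, 2323 bp downstream of the gene start, had list percentiles of 20.7, 34.1 and 11.9 with DMSO and of 28.5 and 31.7 in SNDX-5613 replicates 1 and 2. The strongest site of the flank, 43242 bp downstream, was the promoter of USP2, a deubiquitinating enzyme, and so is at the start of another gene. Its percentiles were 94.7, 96.4 and 95.8 with DMSO and 97.2, 98.3 and 99.5 with SNDX-5613. The groups did not overlap, the difference was 2.69 points with p = 0.1 in the exact permutation test, and the adjusted p by limma was 0.461.

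Sequence elements were counted within 100 bp of the summit at the 31 member sites present in all 6 libraries and at all 33405 such sites, on both strands. CCAAT was found at 7 member sites (22.6%) against 26.7% of all sites, and TGACTCA (AP-1) at 7 (22.6%) against 14.9%. CATTCC (TEAD) was found at 10 (32.3%) against 15.2%, and GGGCGG (SP factors) at 4 (12.9%) against 35.0%. Of the 31 member sites, 7 lay at a promoter of the member gene itself, 4 at the promoter of another protein-coding gene and 5 at a long noncoding RNA start alone. The member sites and all sites were not matched for their share of promoters, so the element shares cannot be told apart from that mix. Among the 6 sites whose groups did not overlap, CCAAT was present at the SOX9 promoter 2 times, at the SOX4 promoter 3 times and at the USP2 promoter 1 time.

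At the promoter, the gene with the ranks most like those of a member, over 6 libraries and 12828 other genes, was LRP12 for SOX9, at a Euclidean distance of 4.39 percentile points. It was HCFC1 for SOX4 (14.5 points), LHX9 for KRT7 (6.36), BCAM for CD24 (6.11) and LTC4S for CD44 (9.19). BCAM had percentiles of 24.3, 25.7 and 25.0 with DMSO and of 51.7, 46.9 and 22.6 with SNDX-5613.

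Other genes of progenitor and duct cells were read at their promoters. KRT23 and DLK1 had no promoter peak, 11 had a promoter site in all 6 libraries and 4 had one in fewer. Of the 11, 3 ranked higher in all SNDX-5613 libraries, against 7.11% of all genes with such a site, and 0 ranked lower, against 7.46%. These were HES1, JAG1 and KRT8, and by limma their adjusted p was 0.201, 0.321 and 0.453. The median difference was 5.47 points over the 11 and -0.362 over all genes with such a site.

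**Figure D5:**
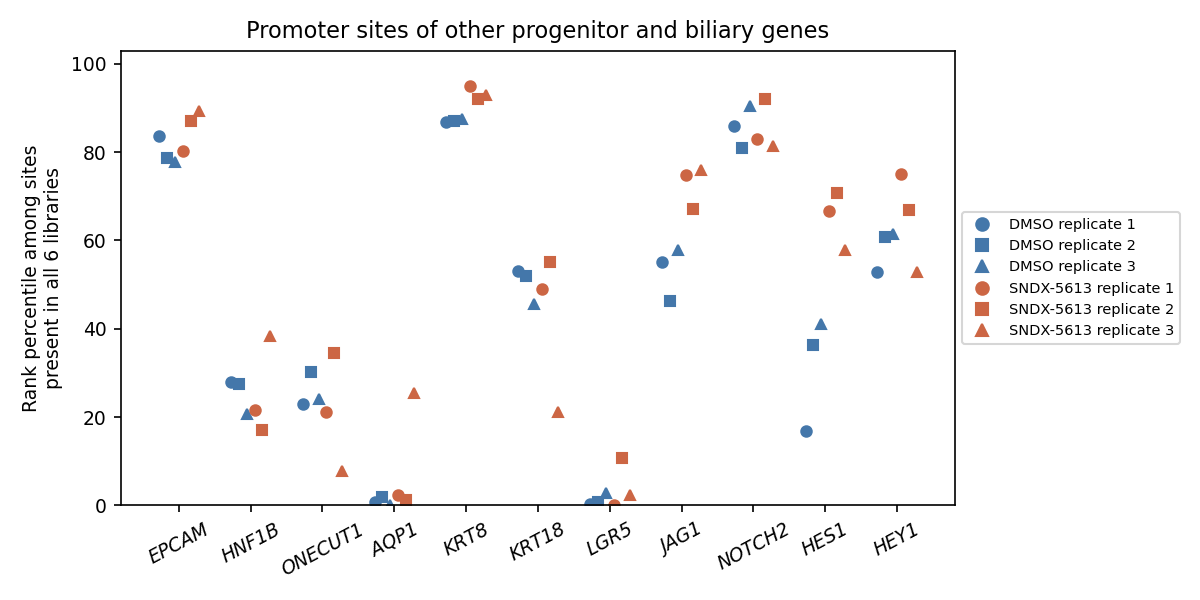
Percentile of -log10 p of the strongest promoter site of 11 other progenitor and duct genes among the 33405 sites present in all 6 libraries, 1 point for each library (blue DMSO, orange SNDX-5613). HES1 and JAG1 have means of 31.4 and 53.1 with DMSO and of 65.1 and 72.6 with SNDX-5613, and SNDX-5613 replicate 3 sits apart at AQP1 and KRT18.

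HES1, a repressor that answers Notch signals, had percentiles of 16.8, 36.3 and 41.2 with DMSO and of 66.8, 70.7 and 57.7 with SNDX-5613. Its difference of 33.7 points, from 31.4 ± 12.9 (SD, n = 3) to 65.1 ± 6.66 (SD, n = 3), had p = 0.1 in the exact permutation test. JAG1, the Notch ligand needed for bile duct formation, had 55.0, 46.3 and 57.8 with DMSO and 74.8, 67.2 and 75.9 with SNDX-5613. Its difference was 19.6 points with p = 0.1 in the exact permutation test. Both were also higher with SNDX-5613 replicate 3 left out of the mean, by 37.4 points for HES1 and 17.9 for JAG1. The next differences were 8.73 points at AQP1, the water channel of bile ducts, and -8.44 at KRT18, a simple epithelial keratin, and at both the groups overlapped. Without SNDX-5613 replicate 3 in the mean these were 0.836 and 1.91 points.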

How the data were processed

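ATAC-seq libraries came from HLF cells given DMSO (3) or SNDX-5613 (3). Per the study's methods and processing notes, the authors aligned reads to hg38 with Bowtie2 (2.3.4.1), marked duplicates with Picard (2.20.0), called peaks per library with MACS2 and built the consensus sets with RMSPC. The Tn5 shift, blacklist and mapping quality filter are not given in the sources used here. The deposited lists hold, for each summit, the authors' fold enrichment (a ratio of pileup to local background), -log10 p and -log10 q. Read counts per region were not analysed here.

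Peaks sharing a region were merged with the strongest summit kept, and regions of 6 libraries overlapping by 1 bp were merged into sites. Genes were taken from GENCODE release 44. Whole-number pileups were solved from fold and p, with a tolerance of 0.002 in -log10 p, for 95.6% to 100% of summits used. Differences of group means had a two-sided exact permutation test, and ranks were fitted with limma (3.58.1, R 4.3.3), tested on simulated data. There the limma fit recovered 16% of 50 sites changed 2-fold and 88% of 50 changed 4-fold, so it can miss changes of 2-fold. The sites given in full were each gene's strongest promoter site, its strongest distal site, sites gained or lost in all 3 libraries, sites with ranks that did not overlap or that limma called. Of the other genes, those with the 4 largest differences were given. Core letters of NF-Y, AP-1, TEAD and SP elements were searched on both strands, with sequences from RefSeq, whose table held 4 of the 8 genes, and hg38. The members, lists and settings were chosen with earlier results of these data known. The alternatives were -log10 q of at least 3, a flank of 20 kb, the 40568 top regions of each list, 50% coverage of a site, ranking by fold, the log2 of -log10 p, a replicate block and leaving out each library.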

Additional observations from a re-analysis of the deposited data

How the results depend on the processing

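No member site passed limma under any of the 12 alternatives. Genome-wide limma calls went from 65 to 17 with equal numbers of regions, 0 when ranked by fold enrichment, 155 on the log2 scale, and 0 to 3 when each library was left out in turn. The difference in member site number, -13 sites, was 0.667 with equal numbers of regions and -19.5 to 1 over the libraries left out, positive without SNDX-5613 replicate 3 alone. Gained member sites numbered 1 when 50% of the site had to be covered and 0 to 3 over the libraries left out, 3 without SNDX-5613 replicate 3. Lost sites numbered 0 with equal numbers of regions or 50% coverage and 1 to 5, 5 without SNDX-5613 replicate 1. Sites that ranked higher numbered 2 with the 20 kb flank, 3 by fold enrichment and 5 to 8 over the libraries left out, and those that ranked lower 0, 0 and 1 to 4. The KRT7 promoter difference was 1.38 by fold enrichment and -3.96 to 3.29 over the libraries left out, and that of CD44 -5.90 to 3.58. It was positive for KRT7 without DMSO replicate 2 (3.29) or SNDX-5613 replicate 3 (0.762), and for CD44 without DMSO replicate 1 (0.852) or SNDX-5613 replicate 3 (3.58). Ranked by fold enrichment, the CD44 site at the reference start had a difference of 5.99 points. The other CD44 promoter site, 76011 bp downstream, had one of -11.7 points on that scale. The SOX9 and SOX4 promoter sites and the CD24 promoter site of highest mean rank kept a positive difference under the 9 alternatives run for them. For SOX4 by fold enrichment, SNDX-5613 replicate 3 was the only SNDX-5613 library above the DMSO range. The other CD24 promoter site, with a difference of -5.97 points, was not run under these alternatives. Causes were not tested.

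With the replicate number as a block, limma called 3 sites in all and 0 member sites. Deviations of same-numbered libraries correlated at 0.0313, 5.9e-05 and 0.0184, against -0.0652 to 0.0391 for libraries of different number. With 3 libraries in each group, 1 of them shallow, these values do not settle whether the numbers mark pairs. The main fit took the libraries as unpaired. Depth limits weak sites, since SNDX-5613 replicate 3 had the fewest peaks and a site needed a peak there to be ranked.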
